A study of Homo sapiens with 18 samples.

Results

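The genes described are the basal and squamous keratins of stratified epithelia, namely KRT5, KRT14, KRT15, KRT6A, KRT6B, KRT16, KRT17, KRT13 and KRT4. They were chosen by symbol, with earlier results of these data known. All 9 were found among the 16575 genes of the table, of which 16553 carried a symbol. CAGE-seq, which counts the capped 5′ ends of RNA, had measured 18 libraries of the bladder cancer lines HT-1376, RT-112 and CAL-29. Each of the 3 lines was present as 6 variants with 1 library each, so a variant had n = 3 over the lines and no repeat within a line.

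The variants were made by stable lentiviral transduction in sequence, first with WWOX or a blank control under puromycin selection and then with AP-2α, AP-2γ or a blank control under G418 selection. The transgenes were driven by a CMV promoter, and the labels call the antibiotic step a clone selection without giving the number of clones kept per variant. KK carried both blank controls. KA and KC carried AP-2α and AP-2γ after the blank control of the first step. WK carried WWOX with the blank control of the second step, and WA and WC carried WWOX with AP-2α and AP-2γ, respectively. All libraries, controls included, therefore came from cells that had been transduced and selected in both steps. RT-112 was cultured in RPMI-1640 and the other lines in DMEM, so line and medium cannot be told apart. The 3 variants with WWOX in a line share the transduction that introduced it, and the same holds for the 3 variants without it, so these libraries are not independent repeats of a transduction. The p-values measure the spread between these libraries.

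A library held between 13357102 and 17958572 reads on genes. A single read was worth 0.0526 to 0.0709 CPM, a library's reads scaled to a common total, and 3 reads, taken as the limit for a gene without reads, were worth 0.158 to 0.213 CPM, which covers counting error only. The 5 epithelial markers, EPCAM, CDH1, KRT8, KRT18 and KRT19, summed to at least 3863 CPM in every library. The leukocyte and endothelial lists had 1 gene each in the table, and their sums reached at most 24.1 and 5.07 CPM. Of the 7 fibroblast genes listed, 4 were present. The sum of these fibroblast genes was 5.33 to 59.6 CPM in HT-1376, which held the highest sum of the lines. The library labelled CAL-29 KC stood apart. Over genes it had a median correlation of 0.940 with the HT-1376 libraries and of 0.741 with the other CAL-29 libraries, so it was kept out of the fits (17 libraries) and its values are given separately. WWOX itself was at 18.5 to 22.3 CPM with and 23.5 to 26.0 CPM without the transgene in RT-112, where the ranges did not overlap and were lower with it. It was at 18.6 to 23.1 CPM with and 16.95 to 24.7 CPM without it in HT-1376, and at 62.4 to 155 CPM with and 51.3 to 63.7 CPM without it in CAL-29, where the ranges overlapped. None of these differences passed an adjusted p of 0.05 in limma (0.787, 0.891 and 0.239). Where the tags of a vector-driven transcript were counted was not tested, so these values are not taken as a check of the overexpression. TFAP2C, which encodes AP-2γ, had a log2 fold-change of 1.40 ± 0.35 (SE) with AP-2γ over the 3 lines. TFAP2A, which encodes AP-2α, had one of 0.51 ± 0.21 with AP-2α (adjusted p 0.9994 and 0.9999, limma). The study checked the transduction by Western blot of WWOX and the AP-2 factors.

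Keratins form the intermediate filaments of epithelial cells. Every filament is built from heterodimers of a type I and a type II keratin, and the pairs change with the layer of the tissue. In the urothelium and other stratified epithelia, KRT5 and KRT14 mark basal cells, KRT6 isoforms with KRT16 and KRT17 are induced on wounding and in squamous cells, and KRT4 with KRT13 mark the layers above the basal one. The type II members, KRT4, KRT5, KRT6A and KRT6B, lie on chromosome 12, and the type I members, KRT13, KRT14, KRT15, KRT16 and KRT17, on chromosome 17, all of them on the minus strand. By GENCODE 44 on GRCh38, KRT5 (ENSG00000186081.12) spans chr12:52514575-52520530 and KRT14 (ENSG00000186847.6) spans chr17:41582279-41586895.

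Since a CAGE tag starts near a promoter and AP-2 factors bind the motif GCCNNNGGC, the bases upstream of the members were examined where RefSeq (GRCh38.p14) windows were at hand, which was the case for 2 of the 9 members, KRT5 and KRT4. The 250 bases before the RefSeq start are shown 5′ to 3′ on the strand of the gene, at chr12:52520395-52520644 for KRT5 and at chr12:52814117-52814366 for KRT4. Capitals mark a match to the AP-2 motif on either strand. The GENCODE span of KRT5 reaches chr12:52520530, so part of the KRT5 window lies within that span. The windows are shown because KRT5 is the type II partner of the basal pair and KRT4 that of the suprabasal pair.
KRT5: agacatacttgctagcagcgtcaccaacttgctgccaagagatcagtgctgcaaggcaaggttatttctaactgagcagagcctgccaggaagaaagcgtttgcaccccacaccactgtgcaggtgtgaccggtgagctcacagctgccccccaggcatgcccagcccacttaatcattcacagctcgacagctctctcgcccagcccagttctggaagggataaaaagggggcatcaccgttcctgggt
KRT4: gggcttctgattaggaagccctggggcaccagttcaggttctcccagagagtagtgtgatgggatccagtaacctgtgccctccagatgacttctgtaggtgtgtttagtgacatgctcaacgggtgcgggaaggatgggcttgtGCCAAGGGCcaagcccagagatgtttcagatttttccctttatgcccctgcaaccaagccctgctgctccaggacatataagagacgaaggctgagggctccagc

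The KRT5 window held no match to GCCNNNGGC, and the KRT4 window held 1 match, GCCAAGGGC, between 105 and 97 bases before the start. Of 35116 such windows, 19.8% held the AP-2 motif. Neither window matched the TATA box TATAAA or the AP-1 motif TGANTCA, which were found in 10.7% and 6.6% of all windows, respectively. A match describes letters and is not evidence of binding, and the 2 windows with and without the AP-2 motif were not related to the expression values.

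The 9 keratins divided the lines into 3 patterns, with KRT17, KRT13 and KRT4 abundant in RT-112, KRT14 in HT-1376 and KRT17 in CAL-29. As a CAGE tag marks the 5′ end of 1 transcript, CPM values of different genes can be compared without a correction for length. The sum of the 9 members was 1596 to 2809 CPM in RT-112, 357 to 949 CPM in HT-1376 and 333 to 1432 CPM in the 5 other CAL-29 libraries. KRT17 was the highest member in every RT-112 library with 41.8% to 62.4% of the sum, and in each of these CAL-29 libraries with 53.2% to 87.6%. KRT14 was the highest member in every HT-1376 library and took 72.5% to 96.8% of the sum, which does not count the pseudogene KRT17P3 described below.

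**Figure D1:**
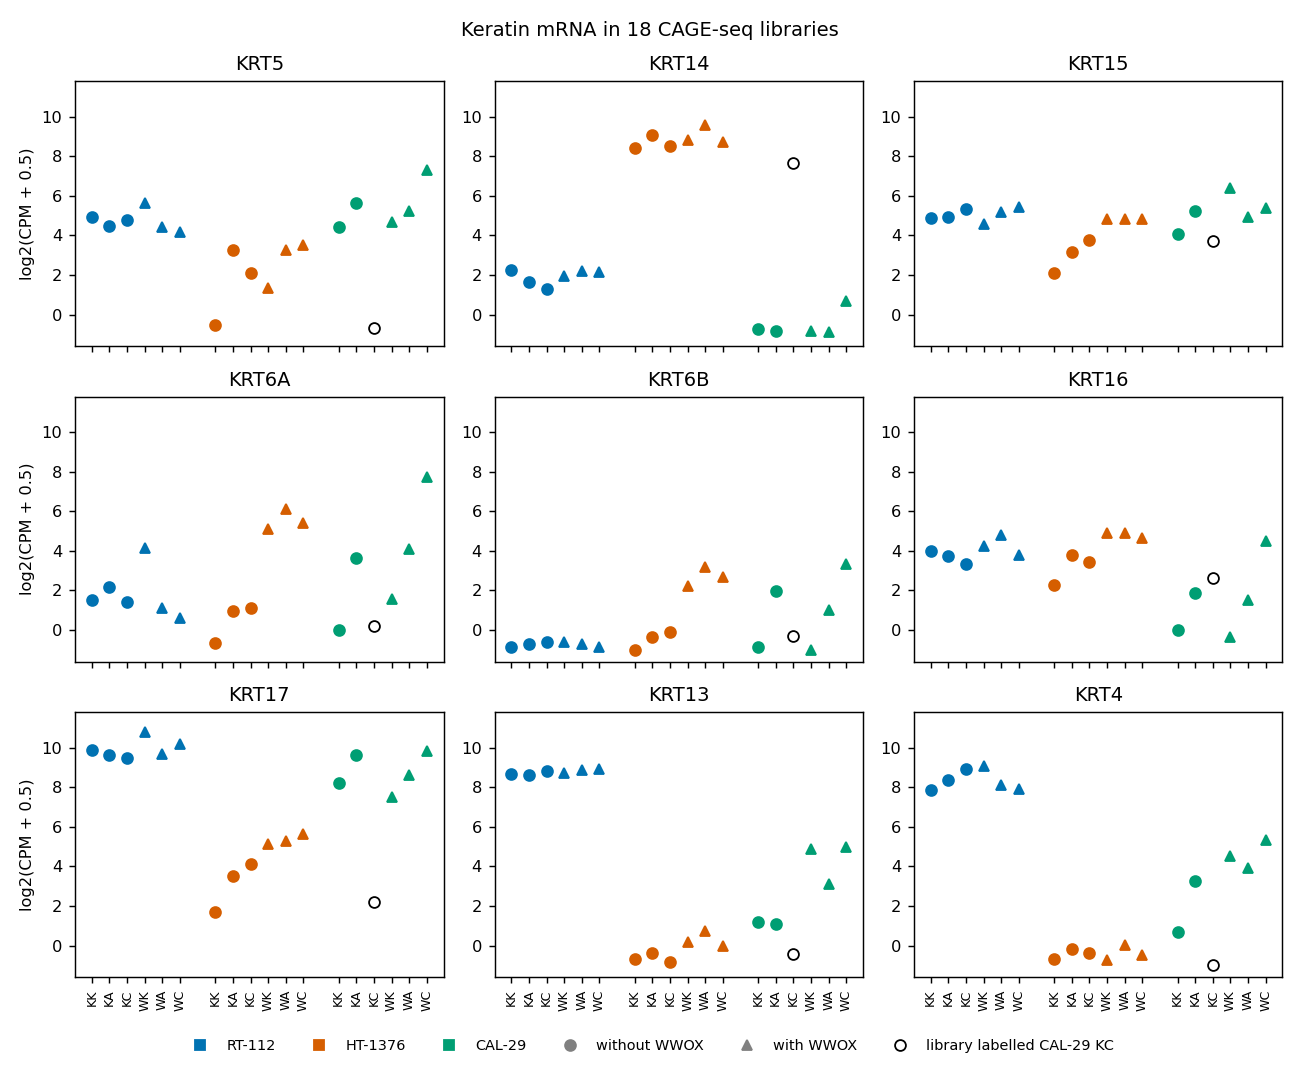
Level of each keratin in the 18 libraries as log2(CPM + 0.5) on the vertical axis, with 1 panel per gene and the 6 variants of RT-112, HT-1376 and CAL-29 from left to right. Circles are variants without and triangles variants with WWOX, and the open circle is the library labelled CAL-29 KC; KRT14 is high in HT-1376, and KRT13 and KRT4 are high in RT-112.

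Among the basal keratins, KRT14, the type I partner of KRT5, separated the lines most clearly. In HT-1376 it was measured at 346, 535 and 372 CPM in KK, KA and KC, and at 447, 766 and 421 CPM in WK, WA and WC. In RT-112 the lowest, median and highest of the 6 values were 1.98, 3.62 and 4.27 CPM. In CAL-29, KRT14 rested on 1 or 2 reads in KK, KA, WK and WA (0.05 to 0.11 CPM) and was at 1.12 CPM in WC, so that the ranges of the 3 lines did not overlap and 4 of the 5 CAL-29 values were under the limit of 3 reads.

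KRT5, the type II keratin of basal cells, was distributed differently. It was measured at 17.7, 24.3 and 48.4 CPM (lowest, median and highest) in RT-112. In CAL-29 the values were 20.9 CPM in KK, 48.7 in KA, 24.9 in WK, 36.5 in WA and 156 in WC. In HT-1376 they were 0.20, 9.14 and 3.83 CPM in KK, KA and KC, and 2.06, 8.95 and 10.7 CPM in WK, WA and WC, below every RT-112 and CAL-29 value. The line with the highest KRT14 thus had the lowest KRT5. KRT15, a type I keratin of basal cells, was at 23.5 to 42.5 CPM in RT-112, 3.75 to 28.3 CPM in HT-1376 and 16.3 to 82.8 CPM in CAL-29, and its ranges overlapped between all lines.

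Among the keratins of wounding and squamous cells, KRT17, a type I keratin, was the most abundant by CPM in every RT-112 and CAL-29 library of the fits, but not throughout HT-1376. Its lowest, median and highest values were 724, 878 and 1753 CPM in RT-112. In CAL-29 it was measured at 292 CPM in KK, 780 in KA, 184 in WK, 390 in WA and 920 in WC, and in HT-1376 at 2.70, 11.0 and 16.9 CPM in KK, KA and KC, and at 35.2, 38.0 and 48.5 CPM in WK, WA and WC. Every HT-1376 value was below every value of the other lines, without the tags of the pseudogene KRT17P3 described below. KRT16, the other type I keratin of the group, was at 9.67 to 27.6 CPM in RT-112, 4.27 to 29.5 CPM in HT-1376 and 0.28 to 22.5 CPM in CAL-29.

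Of the type II partners, KRT6A had the highest SD on the log2 scale of any member within each line (1.25 in RT-112, 2.86 in HT-1376 and 2.92 for CAL-29). It was at 1.02 to 4.0 CPM in 5 of the RT-112 libraries and at 17.3 CPM in WK. In HT-1376 it was measured at 0.13 (2 reads), 1.48 and 1.70 CPM in KK, KA and KC, and at 34.0, 68.3 and 41.6 CPM in WK, WA and WC, and in CAL-29 at 0.50 in KK, 12.0 in KA, 2.49 in WK, 16.4 in WA and 211 in WC. The highest KRT6A value was 422 times the lowest one in CAL-29, whereas for KRT14 in HT-1376 the same quotient was 2.22. KRT6B rested on 1 to 3 reads in each RT-112 library, so it was not distinguishable from 0 there. It reached 8.76 CPM in HT-1376 WA and 9.73 CPM in CAL-29 WC, and it had 0 reads in HT-1376 KK and CAL-29 WK, for which 3 reads would be 0.197 and 0.166 CPM. KRT6A and KRT6B are near-identical in sequence, as is KRT6C, which was not used here, so how reads were divided among them is uncertain.

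The suprabasal keratins followed the line as a pair. KRT13, the type I member, was at 396 to 479 CPM in RT-112, with the highest value 1.21 times the lowest, the smallest quotient of any member in a line. It was at 0.07 to 1.15 CPM in HT-1376, and in CAL-29 it was measured at 1.79 CPM in KK, 1.66 in KA, 29.2 in WK, 8.18 in WA and 30.6 in WC. KRT4, its type II partner, was at 235 to 531 CPM in RT-112, 0.11 to 0.51 CPM in HT-1376 (2 to 8 reads), and in CAL-29 at 1.12 in KK, 9.23 in KA, 22.3 in WK, 14.6 in WA and 39.4 in WC. For both genes the 3 lines did not overlap and were ordered RT-112, CAL-29, HT-1376 from high to low.

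The lines were then compared in limma on log2(CPM + 0.5) with a term for the variant, over the 12991 genes that reached 5 CPM in 1 library or more, with Benjamini-Hochberg adjustment over all of them. All 9 members passed this filter. KRT6B passed through HT-1376 WA and WC and CAL-29 WC alone, all of them with WWOX, and KRT14 through HT-1376 alone, so both entered by the libraries where they were high, and the counts that include them are descriptions. With no filter, each of their calls was kept. Between RT-112 and HT-1376, 7 of 9 members had an adjusted p under 0.05, with 5 higher in RT-112 and 2 lower (KRT14 and KRT6B), where the share over all genes was 61.8% (19.2% higher and 42.6% lower). Between RT-112 and CAL-29, 5 of 9 passed and all were higher in RT-112, against 71.6% of all genes (15.3% higher and 56.2% lower), and between CAL-29 and HT-1376, 7 of 9 passed, 5 higher and 2 lower, against 61% of all genes (43.4% higher and 17.6% lower). The median log2 fold-change (log2FC) of the members was 1.15, 1.24 and 1.31 in these comparisons, where the median of all genes was -0.43, -0.84 and 0.47, respectively. With TMM scaling the medians of all genes were -0.09, -0.14 and 0.10, and the share of calls that were higher changed from 31.1% to 48.0%, from 21.4% to 45.6% and from 71.2% to 53.1%. No called member turned direction under that scaling.

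RT-112 exceeded HT-1376 in KRT13 by a log2FC of 8.92 ± 0.47 (SE, adjusted p = 2.33e-09, limma) and in KRT4 by 8.77 ± 0.47 (adjusted p = 2.49e-09). KRT17 was higher by 5.72 ± 0.49 (adjusted p = 3.13e-07), KRT5 by 2.57 ± 0.54 (adjusted p = 0.000971) and KRT15 by 1.15 ± 0.34 (adjusted p = 0.0104). KRT14 went the other way, with a log2FC of -6.95 ± 0.26 (adjusted p = 7.42e-11) and a mean CPM 143 times higher in HT-1376. KRT6B was also lower in RT-112 (-1.83 ± 0.67, adjusted p = 0.0293). Since all RT-112 values of KRT6B were at or under 3 reads, this difference depends on the pseudocount, and the call was lost when HT-1376 WK, WA or WC or RT-112 WA or WC was left out (adjusted p 0.0598 to 0.0882, limma). KRT6A and KRT16 did not pass, with log2FC of -1.18 ± 1.06 and 0.01 ± 0.56.

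RT-112 exceeded CAL-29 in KRT13 by a log2FC of 5.77 ± 0.51 (adjusted p = 4.81e-07, limma), in KRT4 by 4.77 ± 0.50 (adjusted p = 2.27e-06) and in KRT16 by 2.60 ± 0.60 (adjusted p = 0.00152). KRT14 was higher by 2.51 ± 0.28 (adjusted p = 4.11e-06), a call that was lost once the library labelled CAL-29 KC was included (1.06, adjusted p = 0.363). KRT17 was higher by 1.24 ± 0.53 (adjusted p = 0.0475), and this call was lost under 11 of 22 alternatives, 7 of them the omission of RT-112 KK, KA, KC or WK or of CAL-29 WK, WA or WC (log2FC 0.72 to 1.33). For KRT5, KRT15, KRT6A and KRT6B the log2FC were -0.71 ± 0.58, -0.16 ± 0.37, -1.35 ± 1.14 and -1.51 ± 0.72, and none passed.

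CAL-29 exceeded HT-1376 in KRT17 by a log2FC of 4.48 ± 0.53 (adjusted p = 9.18e-06, limma), in KRT4 by 3.99 ± 0.50 (adjusted p = 1.70e-05), in KRT5 by 3.28 ± 0.58 (adjusted p = 0.000300) and in KRT13 by 3.15 ± 0.51 (adjusted p = 0.000144). KRT15 was higher by 1.31 ± 0.37 (adjusted p = 0.00771), with adjusted p values of 0.0559 to 0.0873 under TMM scaling and under the 3 tools that use reads. KRT14 and KRT16 were lower, by -9.46 ± 0.28 (adjusted p = 1.09e-11) and -2.58 ± 0.60 (adjusted p = 0.00234), respectively. The fold of KRT14 rests on CAL-29 values of 1 or 2 reads and on the pseudocount.

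**Figure D2:**
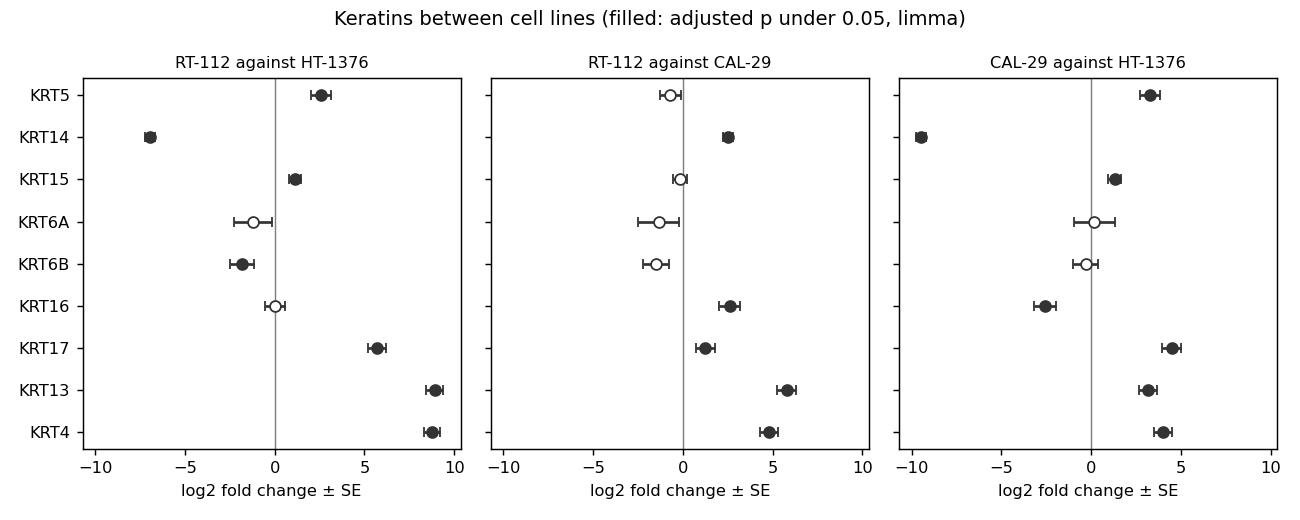
Log2 fold-change of each keratin between cell lines with its standard error (horizontal axis), in 3 panels for RT-112 against HT-1376, RT-112 against CAL-29 and CAL-29 against HT-1376, with filled points for an adjusted p under 0.05 in limma. KRT14 lies far to the left in both comparisons with HT-1376 (-6.95 and -9.46), opposite to KRT17, KRT13 and KRT4.

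The KRT17 values of HT-1376 have to be read beside those of KRT17P3, an unprocessed pseudogene copy of KRT17 at chr17:30567700-30571748. In RT-112 and the 5 other CAL-29 libraries KRT17P3 was at 0.06 to 1.42 CPM, and KRT17 took at least 99.85% of the sum of both genes. In HT-1376, KRT17P3 was measured at 17.3, 106 and 145 CPM in KK, KA and KC, and at 404, 368 and 280 CPM in WK, WA and WC, and KRT17 took only 8.01% to 14.7% of the sum. When both were added, CAL-29 was still higher than HT-1376 but the call was lost (log2FC 1.31, adjusted p = 0.0664, limma), whereas RT-112 against HT-1376 was called under all 23 alternatives (log2FC 2.54 to 6.09). Which of the 2 loci the transcripts came from was not tested.

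**Figure D3:**
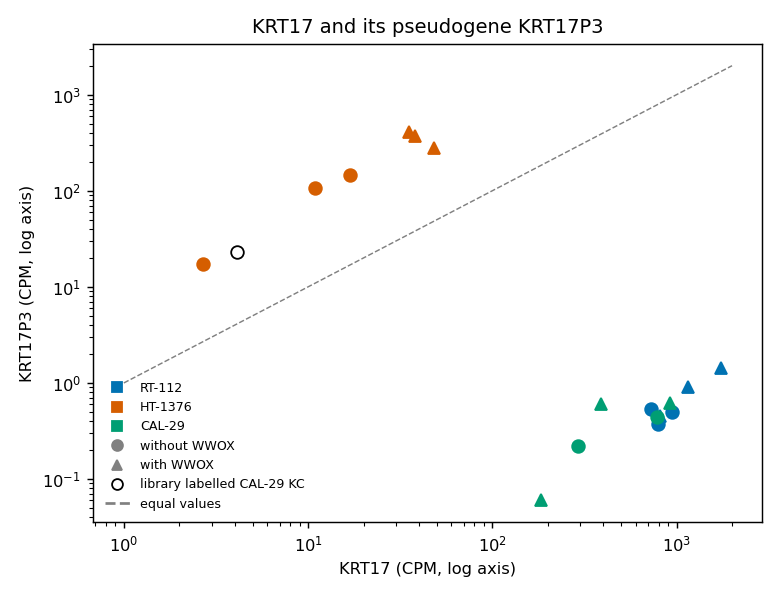
KRT17 (horizontal axis) and its pseudogene KRT17P3 (vertical axis) in CPM, both on log axes, in each library, with circles for variants without and triangles for variants with WWOX and the dashed line for equal values. The 6 HT-1376 libraries and the library labelled CAL-29 KC lie above the line, and all other libraries lie below it with KRT17P3 at 1.42 CPM or less.

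Counting the members alone, the CPM of type II and type I partners differed, to an extent that depended on the line. Other keratins were left out of these ratios, such as KRT8 (787 to 1181 CPM in HT-1376) and KRT18 (2650 to 4956 CPM in HT-1376). The balance of all type II and type I keratins was thus not examined. KRT5 over the sum of KRT14 and KRT15 had a median ratio of 0.652 in RT-112 (0.382 to 1.80) and 1.28 in CAL-29 (0.301 to 3.64), but of 0.0106 in HT-1376 (0.000573 to 0.0240). KRT6A plus KRT6B over KRT16 plus KRT17 had a median ratio of 0.00282 in RT-112, 0.0198 in CAL-29 and 0.337 in HT-1376, where the addition of KRT17P3 changed it to 0.0476. KRT4 over KRT13 was closer to 1, with 0.507 to 1.28 in RT-112 and 0.626 to 5.56 in CAL-29. Both genes were near the limit of detection in HT-1376, so the ratio there (0.175 to 4.0) rests on a few reads. No test was made on these ratios, and the ratios describe transcripts, not proteins.

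**Figure D4:**
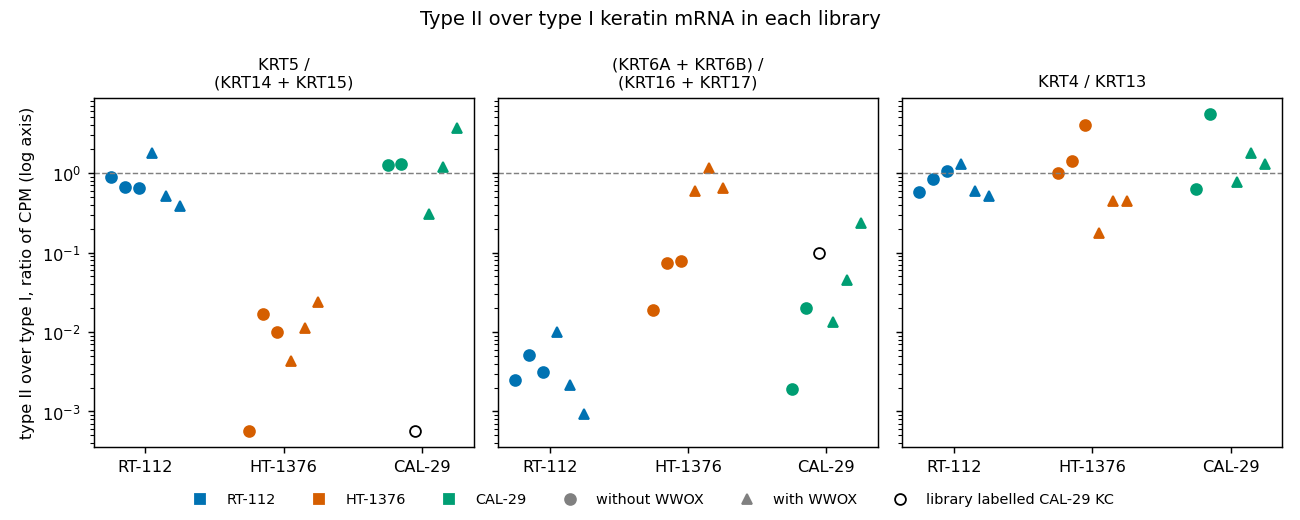
Ratio of type II to type I keratin CPM (vertical log axis) in each library of the 3 lines for the basal, wounding and suprabasal pairs, with a dashed line at 1; KRT4 over KRT13 is not drawn for the library labelled CAL-29 KC, where KRT4 had 0 reads. The basal ratio is at most 0.0240 in the HT-1376 libraries, and the wounding ratio in HT-1376 is higher in the 3 variants with WWOX than in those without.

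The effect of WWOX was estimated first within each line, with separate WWOX and AP-2 effects per line, and the spread was the departure from additivity pooled over the lines. In HT-1376, 5 of 9 members, KRT6B included, rose with WWOX, where 9.71% of all genes changed (4.69% rose and 5.03% fell), and the members were those of wounding and squamous cells together with KRT15. KRT6A rose from 0.13, 1.48 and 1.70 CPM in the variants without WWOX to 34.0, 68.3 and 41.6 CPM in those with WWOX, a log2FC of 5.05 ± 0.65 (adjusted p = 0.00422, limma) and a mean CPM 43.5 times higher. KRT6B rose from 0.00, 0.28 and 0.43 to 4.19, 8.76 and 5.97 CPM (3.20 ± 0.26, adjusted p = 0.00129), and it had passed the filter in this line by its WWOX libraries only. The ranges did not overlap for either gene.

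The type I partners rose as well. KRT17 was at 2.70, 11.0 and 16.9 CPM without and at 35.2, 38.0 and 48.5 CPM with WWOX (2.24 ± 0.35, adjusted p = 0.00752, limma), and KRT16 at 4.27, 13.2 and 10.2 CPM without and 28.96, 29.5 and 24.2 CPM with WWOX (1.65 ± 0.33, adjusted p = 0.0183). KRT17P3 changed alongside (2.42 ± 0.57, adjusted p = 0.0321), and KRT17 with KRT17P3 added was still called. KRT15 was at 3.75, 8.34 and 13.1 CPM without and at 27.5 to 28.3 CPM with WWOX (1.83 ± 0.46, adjusted p = 0.0391). For KRT13 no overlap was seen either, but all values were at 1.15 CPM or less (0.91 ± 0.30, adjusted p = 0.0863). The other members did not pass, with log2FC of 1.07 ± 0.38 for KRT5, 0.36 ± 0.26 for KRT14 and 0.00 ± 0.55 for KRT4.

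In total, 6 of 9 members, KRT6B included, were higher in all HT-1376 variants with WWOX than in all without it, against 12.9% of all genes, and none was lower without overlap, against 22.7%. The calls depend on the spread of all lines. When the library labelled CAL-29 KC entered the fit, no member was called in HT-1376 (adjusted p 0.0629 to 0.346), while the HT-1376 values themselves are the same. When a single HT-1376 library was left out, 3 or 4 members were called, with the shares of all genes called in those fits not given here. KRT15 was lost upon omission of any 1 of the 6 libraries (log2FC 1.37 to 2.21), and KRT16 upon omission of KK, KA, WK or WA (1.17 to 1.92). The tags counted at the WWOX gene had a log2FC of -0.06 ± 0.23 with the transgene in this line (adjusted p = 0.891, limma). They are not taken as a check of the overexpression, since where the tags of a vector-driven transcript were counted was not tested.

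In CAL-29, KRT13 was the single member that rose with WWOX, where 0.724% of all genes changed (0.531% rose, 73.4% of the calls, or 57.3% with TMM scaling). Its values were 1.79 and 1.66 CPM in KK and KA, and 29.2, 8.18 and 30.6 CPM in WK, WA and WC. The log2FC of 2.85 ± 0.36 (adjusted p = 0.0134, limma) rests on WK, WA, KK and KA, since WC was taken up by the AP-2γ term. The call was lost in edgeR on reads (log2FC 3.09, adjusted p = 0.0757). KRT4, its partner, was likewise higher in all 3 variants with WWOX, but did not pass (2.23 ± 0.68, adjusted p = 0.210). These were the 2 members without overlap in this line, against 9.01% of all genes, and none was lower without overlap, against 9.78%. The number of members called changed when KA or WA was left out, with the shares of all genes called in those fits not given here.

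In RT-112, no member passed in limma, where 0% of all genes were called, and no member had an unadjusted p under 0.05, nor was a member called by edgeR or DESeq2. The log2FC lay between -0.02 (KRT4) and 0.58 (KRT16). No member of RT-112 was free of overlap between variants with and without WWOX, against 9.49% of all genes higher and 11.5% lower without overlap.

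**Figure D5:**
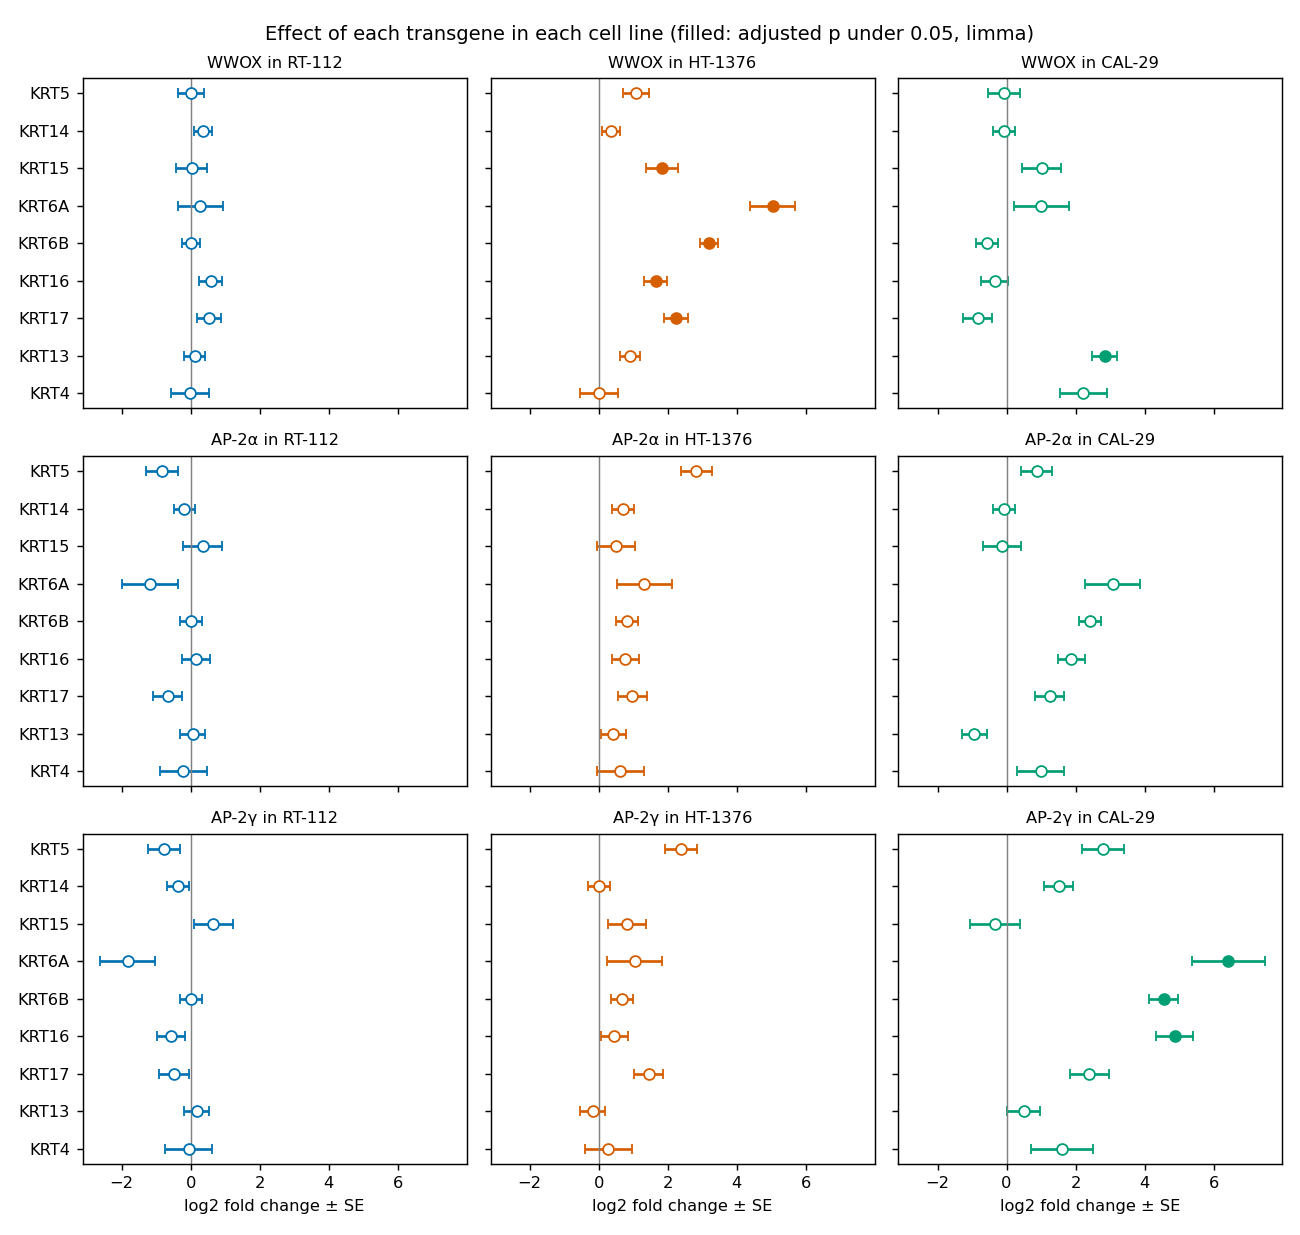
Log2 fold-change of each keratin with its standard error (horizontal axis) for WWOX, AP-2α and AP-2γ (rows) in RT-112, HT-1376 and CAL-29 (columns), with filled points for an adjusted p under 0.05 in limma. With WWOX, 5 members rose in HT-1376 and KRT13 rose in CAL-29, and with AP-2γ, KRT6A, KRT6B and KRT16 rose in CAL-29, while all points of RT-112 are open.

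The WWOX effects differed between the lines for 4 of 9 members by an F test of the 3 effects within lines, where 2.89% of all genes passed. These were KRT6B (adjusted p = 0.0135), KRT13 (0.0410), KRT17 (0.0430) and KRT6A (0.0474), all in limma. KRT6B had passed the filter by libraries with WWOX only, where it was high, so the count that includes it is a description. For KRT17 the log2FC of RT-112, HT-1376 and CAL-29 were 0.54, 2.24 and -0.83, and for KRT6B they were 0.00, 3.20 and -0.57. With the library labelled CAL-29 KC included, none of the 4 passed (adjusted p 0.123 to 0.796), and with KRT17P3 added KRT17 did not pass (adjusted p = 0.104). Over 9 alternatives the call was lost in 5 for KRT13, 4 for KRT17, 4 for KRT6A and 1 for KRT6B.

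Over the 3 lines together, with terms for line, WWOX and AP-2, 0 of 9 members passed for WWOX, as did 0% of all genes. At an unadjusted p under 0.05 there were 6 members and 1591 of the 12991 genes. The log2FC of all members were above 0, with 2.60 ± 0.87 for KRT6A, 1.24 ± 0.38 for KRT13, 1.02 ± 0.47 for KRT16 and 0.90 ± 0.31 for KRT15 (adjusted p 0.290 to 0.398, limma). DESeq2 called 2 members and edgeR none, with the shares of all genes called by these tools not given here. In the 8 pairs of libraries that differ in WWOX alone, KRT13 was higher with WWOX in 8, which was the case for 1.32% of all genes, and KRT6A, KRT15, KRT16 and KRT17 were higher in 6 of 8. KRT5, KRT6B and KRT4 were higher in 4 of 8 pairs each.

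For AP-2γ, members changed in CAL-29 alone among the within-line fits. There, 3 of 9 rose, where 2.45% of all genes passed (0.570% rose). As the library labelled CAL-29 KC was kept apart, these effects rest on the single library WC, without a repeat. KRT6B reached the 5 CPM of the filter in this line in WC only, so the count that includes it is a description. KRT6A was at 2.49 CPM in WK and 211 CPM in WC (6.43 ± 1.06, adjusted p = 0.0288, limma), KRT16 at 0.28 and 22.5 CPM (4.87 ± 0.53, adjusted p = 0.00953) and KRT6B at 0.00 and 9.73 CPM (4.56 ± 0.43, adjusted p = 0.00596). KRT5, KRT17 and KRT14 did not pass (2.78 ± 0.61, 2.40 ± 0.56 and 1.51 ± 0.41, adjusted p 0.0517, 0.0608 and 0.0931). The median of all genes was at -0.49 in this comparison, and at -0.04 with TMM scaling, which changed the share of calls that were higher from 23.3% to 62.8%. With the library labelled CAL-29 KC in the fit, only KRT16 was called, and the number called also changed when WK was left out. The shares of all genes called in these fits are not given here, so they are descriptions.

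In HT-1376 and RT-112, no member passed for AP-2γ in limma, where 0.0385% of all genes passed in each. At an unadjusted p under 0.05 in limma, KRT5 and KRT17 were higher in HT-1376 and KRT6A was lower in RT-112. DESeq2 called 1 member in HT-1376. The shares of all genes beside these are not given here, so they are descriptions. The log2FC closest to the threshold in HT-1376 was that of KRT5, 2.38 ± 0.46 (adjusted p = 0.268), with 0.20 CPM in KK against 3.83 in KC and 2.06 in WK against 10.7 in WC. In RT-112 KRT6A had a log2FC of -1.83 ± 0.80 (adjusted p = 1.00), with 2.33 CPM in KK against 2.14 in KC and 17.3 in WK against 1.02 in WC. The F test of the difference between lines called no member for AP-2γ and 0% of all genes (6 members and 1796 genes at an unadjusted p under 0.05). This test called 1 member in edgeR, 2 in limma with TMM scaling and 2 with no filter, with the shares of all genes called there not given here.

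For AP-2α, no member passed in limma in any line, where 0.0077% of all genes passed in RT-112 and 0% in HT-1376 and CAL-29. At an unadjusted p under 0.05 in limma, KRT6A, KRT6B, KRT16 and KRT17 were higher and KRT13 was lower in CAL-29. In HT-1376, KRT5, KRT6B and KRT17 were higher at this level, and no member reached it in RT-112. The shares of all genes at this level are not given here, so these are descriptions. KRT6B in CAL-29, with 0.06 CPM in KK, 3.48 in KA, 0.00 in WK and 1.53 in WA, came closest (2.43 ± 0.32, adjusted p = 0.108). KRT5 in HT-1376 had 0.20 CPM in KK, 9.14 in KA, 2.06 in WK and 8.95 in WA (2.83 ± 0.46, adjusted p = 0.778). DESeq2 called 2 members in CAL-29 and 1 in HT-1376, and edgeR called none, with the shares of all genes called by these tools not given here. In CAL-29, the number of members called in limma changed when KK, KA, WK or WA was left out, with the shares of all genes not given here. The F test between lines called no member and 0% of all genes (5 members and 465 genes at an unadjusted p under 0.05). Over the 3 lines together, 0 of 9 members and 0% of all genes passed for either AP-2 factor in limma, with 0 members in each at an unadjusted p under 0.05 and none called by edgeR or DESeq2.

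The comparisons of each variant with KK, which treat the lines as replicates, share their control libraries. No member passed in any of the 5 (WK/KK, WA/KK, WC/KK, KA/KK and KC/KK) in limma, where 0% of all genes passed in each. KRT6A had the highest log2FC in all of WK/KK, WA/KK and WC/KK, with 3.34 ± 1.60, 3.49 ± 1.60 and 4.30 ± 1.60 (adjusted p at least 0.9998). At an unadjusted p under 0.05 in limma there was KRT15 in WK/KK, KRT6A in WA/KK and WC/KK, and no member in KA/KK and KC/KK. The shares of all genes at this level without the block are not given here. When the line was added as a block, 0 members passed, and the counts at an unadjusted p under 0.05 were 4 in WK/KK, 3 in WA/KK, 8 in WC/KK and 0 in the other two, against 745, 365 and 1819 of all genes in the first 3. In WC/KK with the block, the log2FC were 4.30 ± 1.5 for KRT6A, 2.63 ± 0.95 for KRT6B and 2.05 ± 0.76 for KRT5 (adjusted p = 0.344 each). DESeq2 called 1 member in WC/KK, with its share of all genes not given here.

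Other genes of the basal and squamous programme were taken from a list of 28 genes, of regulators, hemidesmosome and basement membrane genes, desmosome genes and further basal markers. Between RT-112 and HT-1376, 21 of 28 passed, 4 higher and 17 lower in RT-112, or 9 and 13 with TMM scaling, with a median log2FC of -0.83, beside 61.8% of all genes (19.2% higher and 42.6% lower). DSC2, a desmosomal cadherin, was lower (-4.15 ± 0.30), and ZNF750 and KLF5, transcription factors of epithelial differentiation, were higher (2.72 ± 0.34 and 1.27 ± 0.26). Between RT-112 and CAL-29, 19 of 28 passed, 2 higher and 17 lower, or 6 and 12 with TMM scaling, beside 71.6% of all genes (15.3% higher and 56.2% lower), with DSG3, a desmosomal cadherin of basal cells, at -4.71 ± 0.48. Between CAL-29 and HT-1376, 14 of 28 passed, 9 higher and 5 lower, beside 61% of all genes (43.4% higher and 17.6% lower). With TMM scaling the balance turned to 4 higher and 9 lower, so no direction is given for the list. Among the named genes, ZNF750 was at 3.12 ± 0.36 and SFN, the 14-3-3σ protein of stratified epithelia, at -2.08 ± 0.34. TP63, whose product p63 is a regulator of basal cells, was at 47.4 to 90.7 CPM in RT-112, 48.9 to 106 CPM in HT-1376 and 82.2 to 269 CPM in CAL-29. It passed in RT-112 against CAL-29 alone of the comparisons between lines (-1.13 ± 0.32, adjusted p = 0.00624, limma) and did not pass for WWOX or AP-2 within a line.

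With WWOX in HT-1376, 5 of the 28 passed, beside 9.71% of all genes, and 0 passed with the library labelled CAL-29 KC included. Of these, COL17A1 and TRIM29 are named after their values were seen. PKP1, a desmosomal plaque protein, rose by 2.36 ± 0.44 (adjusted p = 0.0142, limma), CDH3, the P-cadherin of basal cells, by 1.30 ± 0.18 (adjusted p = 0.00463), COL17A1, a hemidesmosomal collagen, by 0.85 ± 0.21 (adjusted p = 0.0366) and TRIM29 by 0.62 ± 0.16 (adjusted p = 0.0418). GRHL2, an epithelial transcription factor, had a log2FC of -1.21 ± 0.26 (adjusted p = 0.0235). The median of the list was -0.06, beside -0.13 over all genes. In CAL-29, KLF5 rose with WWOX (1.64 ± 0.24, adjusted p = 0.0258), though no listed gene was called there in edgeR. For AP-2γ in CAL-29, SFN had a log2FC of 2.67 ± 0.42 (adjusted p = 0.0286) and KLF5 of -1.84 ± 0.32 (adjusted p = 0.0312), a call that was lost with TMM scaling.

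To describe which genes had a like pattern, the mean of the line was subtracted from log2(CPM + 0.5), and Pearson's r was computed over the 17 libraries with 10412 genes of at least 5 CPM in mean. The points share lines and transductions, so r is a description. Among the members, KRT6A and KRT6B were most alike (r = 0.928), followed by KRT6B with KRT16 (0.882) and with KRT17 (0.867) and KRT6A with KRT16 (0.856). KRT13 and KRT4 had an r of 0.750, KRT5 and KRT14 of 0.589, and KRT13 and KRT17 of 0.133. The r values were thus higher among the keratins of wounding than for KRT5 with KRT14. KRT14 rested on 1 or 2 reads in CAL-29 KK, KA, WK and WA, which limits its r. The division of reads between KRT6A and KRT6B is uncertain, which limits theirs.

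Outside the members, KRT6A was most like SPRR1B (r = 0.957), a precursor of the cornified envelope, MMP9 (0.936), a gelatinase, and SERPINB2 (0.916), a protease inhibitor. KRT16 was most like MMP9 (0.893), TUBA4A and MVK, and KRT17 like PDLIM7 (0.948), HAS3 and CSF2. For KRT15 the closest genes were CXCL1 (0.936), a chemokine, PYCARD and EFHD2, and for KRT5 they were PRSS23 (0.916), ACTN1 and DEF8. KRT14 was most like PPM1F (0.838), MVK and JPT1. KRT13 had HOXA11-AS (0.908), MIR4683 and FZD8 and KRT4 had MYL6P2 (0.904), CYP27C1 and IVL, the cornified envelope protein involucrin. KRT6B was not examined in this way, as its mean was under 5 CPM.

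The library labelled CAL-29 KC had a keratin pattern unlike that of the other CAL-29 libraries. KRT14 was at 199 CPM there (3334 reads), whereas it reached 1.12 CPM in the others. KRT17 was at 4.11 CPM against 184 to 920 CPM, KRT5 at 0.12 CPM (2 reads) against 20.9 to 156 CPM, and KRT4 had 0 reads, which allows up to 0.179 CPM. KRT17 took 15.2% of its sum with KRT17P3 (69 of 453 reads, exact 95% interval 12.1% to 18.9%), near the 8.01% to 14.7% of HT-1376. Of the 9 members, 6 lay within the range of the HT-1376 libraries and 3 within that of the other CAL-29 libraries. How this library came to differ was not tested.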

How the data were processed

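CAGE-seq (75 nt reads) was performed by the authors on 18 libraries. The authors mapped tags to hg38 with BWA and then HISAT2 2.0.5, clustered them with Paraclu, filtered clusters by irreproducible discovery rate and deposited 1 CPM value per gene and library with 2 decimals, and the annotation and the total behind the CPM were not given in the sources used here. Ensembl identifiers were joined to GENCODE 44. In each library, 99.97% to 99.99% of the deposited CPM values equalled a whole number of reads within 0.0051 CPM, so reads were recovered. No column belonged to another series (0 columns).

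Genes that reached 5 CPM in 1 or more of 17 libraries were retained, values were transformed to log2(CPM + 0.5), which understates changes of low genes, and limma 3.58.1 (R 4.3.3) was fitted with trended variance, two-sided, and Benjamini-Hochberg adjustment at 0.05. This differs from the voom transformation of the methods of the study, which was an alternative. Samples were grouped by their labels, and the comparisons with KK had no block, as the methods of the study name none. Libraries of the same line are paired by design, and after subtraction of the variant mean they correlated at 0.721 to 0.915 (RT-112), 0.680 to 0.896 (HT-1376) and 0.663 to 0.881 (CAL-29). Alternatives were pseudocounts of 0.05 and 2 CPM, other filters, TMM scaling, the library labelled CAL-29 KC included, voom, edgeR 4.0.16, DESeq2 1.42.0, a block for the line and each library left out. KRT17P3 added to KRT17 and edgeR with a block were chosen after seeing the data. The members and gene lists were chosen with earlier results of these data known. The named genes were every member, the 3 most alike genes of each member, and, of the programme list, at most the 2 highest and 2 lowest past the test per comparison and TP63, of which 1 gene is not reported here. On simulated data of 12991 genes with 200 changed 4-fold, limma called 178 (WWOX over the lines), 2 (WK/KK without block), 130 (with block) and 122 (WWOX within HT-1376), with 6, 0, 4 and 20 unchanged genes called. Python 3.11.15, NumPy 2.4.6, pandas 2.3.3, SciPy 1.17.1 and matplotlib 3.10.9 were used.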

Additional observations from a re-analysis of the deposited data

Results flagged for a closer look

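Of 27 sets of a member in a line, 5 had a library far from the others by Dixon's criterion on CPM. The criterion's rate of about 1 in 20 holds for normally distributed repeats. These sets hold different variants, and members that go together, so the count is a description. In CAL-29, WC was the highest for KRT5 (155.81 CPM, next 48.71), KRT14 (1.12 CPM, next 0.11), KRT6A (211.14 CPM, next 16.42) and KRT16 (22.49 CPM, next 3.15). In RT-112, WK was the highest for KRT6A (17.32 CPM, next 4.0). All 4 CAL-29 values belong to a single library, which alone carries AP-2γ in CAL-29 in the fits.

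The WWOX effects differed between the lines by the F test for KRT13 (F = 17.43), KRT17 (F = 16.43), KRT6A (F = 14.96) and KRT6B (F = 54.07). The adjusted p values were 0.0410, 0.0430, 0.0474 and 0.0135 in limma. KRT6B had passed the filter by libraries with WWOX only, so its place among these members is a description.

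Outside the fits, 4 members were above the CAL-29 KK value in the library labelled CAL-29 KC. KRT14 was at 198.76 CPM against 0.11, KRT16 at 5.66 against 0.50, KRT6A at 0.66 against 0.50 and KRT6B at 0.30 against 0.06 CPM, the latter pair being 5 reads and 1 read.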

How the results depend on the processing

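Of 598 alternative values for the 32 called results of single members, 542 stayed past the threshold, 56 did not and 0 changed direction. The number of members called changed by more than 1.5 times as follows. With the library labelled CAL-29 KC included, 0 members were called for WWOX within HT-1376, 0 for the difference of WWOX effects between lines and 1 for AP-2γ within CAL-29. With DESeq2, 1 was called in WC/KK, 2 for WWOX over the lines, 1 for AP-2α and 1 for AP-2γ within HT-1376, 2 for AP-2α within CAL-29 and 6 for AP-2γ within CAL-29. With edgeR on reads, 0 were called for WWOX within CAL-29, 1 for the difference of WWOX effects and 1 for the difference of AP-2γ effects. The difference of WWOX effects had 2 members with a pseudocount of 0.05 CPM and 2 with limma-voom, and that of AP-2γ effects had 2 with no filter and 2 with TMM scaling. AP-2γ within CAL-29 had 5 with a pseudocount of 2 CPM, and AP-2α within CAL-29 had 1 with no filter. Upon leaving out single libraries, the counts were 3 to 4 for WWOX within HT-1376, 1 to 3 for WWOX within CAL-29, 0 to 2 for AP-2α within CAL-29, 3 to 7 for AP-2γ within CAL-29 and 0 to 1 for AP-2γ within HT-1376. With KRT17P3 added, the ratio of KRT6A plus KRT6B to KRT16 plus KRT17 was 0.0476 in HT-1376 at the median, in place of 0.337. The shares of all genes called under these alternatives are not given here, so the counts describe the dependence on the processing only. The causes of these changes were not tested.

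With the cell line as a replicate block, 0 members were called in each of the 5 comparisons with KK, as without it. Without a term for the line or the variant (no replicate block), the counts were 0 for WWOX, AP-2α and AP-2γ over the lines, 7 for RT-112 against HT-1376, 4 for RT-112 against CAL-29 and 7 for CAL-29 against HT-1376. AP-2γ within CAL-29 could not be estimated without WC, DESeq2 was not run for the F tests, and KRT6C was not used here. Depth limits statements on KRT6B in RT-112, KRT14 in CAL-29 and KRT13 and KRT4 in HT-1376, which rested on few reads. A line has 1 library per variant, so no effect has a repeat of the same variant in a line.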
